A study of Homo sapiens with 2 samples.

Results

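Acute-phase proteins are plasma proteins whose synthesis in the liver changes during infection and injury, and several of them are also made by epithelial cells of the airway. Interleukin 6 acts through gp130, JAK kinases and STAT3, and interleukin 1 through NF-kappaB, and C/EBP factors act with both on the promoters of these genes. The 10 genes considered here were LCN2, SERPINA1, SERPINA3, FGA, FGB, FGG, SAA1, SAA2, HP and TF. They were taken by symbol through their Entrez IDs, in the knowledge that LCN2 was higher in the PKP2 library, so LCN2 was selected on its CPM ratio and every difference below is a description. Of these, 8 had a value among 16399 listed genes. HP (haptoglobin) and TF (transferrin) had no value and were not analysed here. A level of at least 1 CPM (counts per 1000000 counts of the library) in at least 1 library was called expressed, which 6 of the 8 genes reached, among 12820 genes in all.

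The libraries came from A549, an established line of human lung adenocarcinoma, in a study seeking genes downstream of plakophilin 2 (PKP2). In the vector group the cells carried the vector, and in the PKP2 group PKP2 was overexpressed from an SFB-tag construct. Both cultures were at passage 5 in DMEM with serum, and neither the promoter of the construct nor whether cells came from 1 clone is given in the sources used here. Each group held 1 library, so no difference has a replicate check and no p-value is given. The libraries had 16996976 and 16808842 counts (vector, then PKP2), and PKP2 itself was at 27.3 and 268 CPM. All 12 of the A549 and epithelial markers examined were expressed, at a summed 28014 and 28659 CPM. EPCAM, picked after its value was seen, was close to the 1 CPM mark, at 1.47 and 1.37 CPM. Of the markers named by rule, ALDH1A1 and KRT19 had ratios of 1.11 (1.10 to 1.12) and 1.13 (1.09 to 1.17). CDH1 and AKR1B10 (fractional count) had ratios of 0.871 (0.797 to 0.952) and 0.875 (0.864 to 0.885). After removal of a trend on transcript length and GC content, described with LCN2, KRT19 differed by -0.01 instead of 0.17 on the log2(CPM + 1) scale. Of 12 hepatocyte markers 2 were expressed, with a summed level of all listed ones of 26.5 and 18.7 CPM, of which CPS1, an enzyme of the urea cycle, made up 23.6 and 16.8 with a ratio of 0.714 (0.611 to 0.833). Albumin (ALB) had 2 and 0 counts. Leukocyte markers (3 of 12 expressed) summed to 86.2 and 89.6 CPM, of which CD68 made up 78.4 and 82.5, and fibroblast and endothelial markers (2 of 10 expressed) to 9.77 and 12.6 CPM, of which the collagen gene COL1A1 made up 8.12 and 10.4 with a ratio of 1.27 (1.01 to 1.61). Which cells of the A549 cultures made these marker transcripts, and whether they bear on the differences below, was not tested.

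The higher members in the PKP2 library were LCN2, SERPINA3 and SAA1, whereas the 3 fibrinogen chains stayed close to their vector levels. The sequences just before the starts of LCN2 and SERPINA3 are shown with that of the fibrinogen gene FGA, so that those of genes that were higher can be read beside that of a gene that was not. Each is the 250 bases before the annotated start, 5′ to 3′, from the RefSeq promoter table (GRCh38.p14), in which 7 of the 10 genes have an entry. Capitals mark matches to motifs for NF-kappaB (an opening GGG and a closing CC with any 5 letters between them), C/EBP (TTNNGNAA) and STAT (TTCNNNGAA), searched on both strands. The window of LCN2 is chr9:128149203-128149452, plus strand, that of SERPINA3 chr14:94612141-94612390, plus strand, and that of FGA chr4:154590743-154590992, minus strand. The LCN2 window lies inside the gene as GENCODE 29 draws it, whose outermost start is further upstream.
LCN2: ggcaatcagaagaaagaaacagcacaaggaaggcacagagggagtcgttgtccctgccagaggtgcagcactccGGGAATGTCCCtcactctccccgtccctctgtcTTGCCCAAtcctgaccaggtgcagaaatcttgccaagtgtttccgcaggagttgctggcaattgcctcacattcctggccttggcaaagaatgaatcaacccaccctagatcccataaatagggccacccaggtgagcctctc
SERPINA3: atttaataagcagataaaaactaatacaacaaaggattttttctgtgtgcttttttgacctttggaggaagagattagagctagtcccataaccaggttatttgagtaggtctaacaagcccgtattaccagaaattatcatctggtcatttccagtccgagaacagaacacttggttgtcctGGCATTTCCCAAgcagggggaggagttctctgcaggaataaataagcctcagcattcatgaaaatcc
FGA: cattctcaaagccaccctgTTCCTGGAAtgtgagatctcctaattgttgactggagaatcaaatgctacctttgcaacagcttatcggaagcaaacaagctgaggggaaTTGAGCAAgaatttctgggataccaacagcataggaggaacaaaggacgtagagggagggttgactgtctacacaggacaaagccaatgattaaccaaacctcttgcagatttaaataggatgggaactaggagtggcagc

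LCN2 held 2 overlapping matches to the NF-kappaB motif, from -176 to -167 on the plus strand and from -175 to -166 on the minus strand, counted back from the start. It also held a C/EBP match from -143 to -136. In SERPINA3 an NF-kappaB match from -67 to -58 overlapped a C/EBP match from -63 to -56. FGA held a C/EBP match from -141 to -134 and a STAT match from -231 to -223, and no NF-kappaB match in this window. FGG, which was not higher either, did hold an NF-kappaB match, from -112 to -103, so a match was not limited to the higher members. These motifs are loose. Of 35116 promoter entries of this length, 54.4% held the NF-kappaB motif, 33.2% the C/EBP motif and 6.57% the STAT motif. A TATA box (TATAAA) was in 10.7% of entries and was not found in these 3 windows. A match describes letters and is not evidence of a bound site.

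LCN2 encodes lipocalin 2, a secreted protein that binds bacterial siderophores and so withholds iron. LCN2 (Entrez ID 3934, chromosome 9, 128149071 to 128153455, plus strand, GRCh38, GENCODE 29) had 491 counts with vector and 714 with PKP2. These correspond to 28.9 CPM, with a 95% exact Poisson interval of 26.4 to 31.6, and 42.5 CPM, with an interval of 39.4 to 45.7. The intervals do not overlap, and the PKP2 library was the higher one. They cover counting error only. The ratio was 1.47, with an exact 95% Clopper-Pearson interval of 1.31 to 1.65. In bulk RNA more cells making a transcript and more of it per cell cannot be told apart.

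On the log2(CPM + 1) scale LCN2 differed by 0.54, just short of the 0.58 that marks a 1.5-fold difference. This placed it 130th from the top of 12820 expressed genes. Of 5009 expressed genes with a mean level within 2-fold of that of LCN2, 8 had a larger positive difference, and the SD of the differences among the 5009 was 0.19. Since LCN2 was selected as higher, its rank and this count describe a selected value and are not a test. Both were taken before removal of the length and GC trend given below. The longest LCN2 transcript has 877 nucleotides, against a median of 3725 over expressed genes, and shorter transcripts tended to be higher in the PKP2 library (Spearman's rho of -0.46 between difference and length across genes, which are not replicates). After a trend on length and GC content was removed, the difference of LCN2 was 0.32.

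SERPINA3 encodes alpha-1-antichymotrypsin, an inhibitor of cathepsin G and chymase. The gene (Entrez ID 12, chromosome 14, 94612377 to 94624055, plus strand) had 29 counts with vector and 70 with PKP2. Its level was 1.71 CPM (1.14 to 2.45) against 4.16 CPM (3.25 to 5.26), and these counting intervals did not overlap. The ratio was 2.44, with an interval of 1.56 to 3.90. The difference of 0.93 on the log2(CPM + 1) scale was the 14th highest of all expressed genes, and 0.86 remained after removal of the length and GC trend. Genes of like level varied more than those at the level of LCN2, with an SD of 0.30 over 1631 genes, of which 5 had a larger difference.

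SERPINA1 encodes alpha-1-antitrypsin, the main plasma inhibitor of neutrophil elastase, and lies in the serpin cluster of chromosome 14 (94376747 to 94390693, minus strand), where it and SERPINA3 together span 247 kb. It had 10 counts with vector and 4 with PKP2, or 0.588 CPM (0.282 to 1.08) and 0.238 CPM (0.0648 to 0.609). The intervals overlap, and the ratio of 0.404 had an interval of 0.0926 to 1.40 that includes 1. A difference was thus not detected at this depth, and the gene stayed under the level called expressed in both libraries. SERPINA6, which encodes corticosteroid-binding globulin in the same cluster and is named here because of its value, had 49 and 36 counts and a ratio of 0.743 (0.469 to 1.17).

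**Figure D1:**
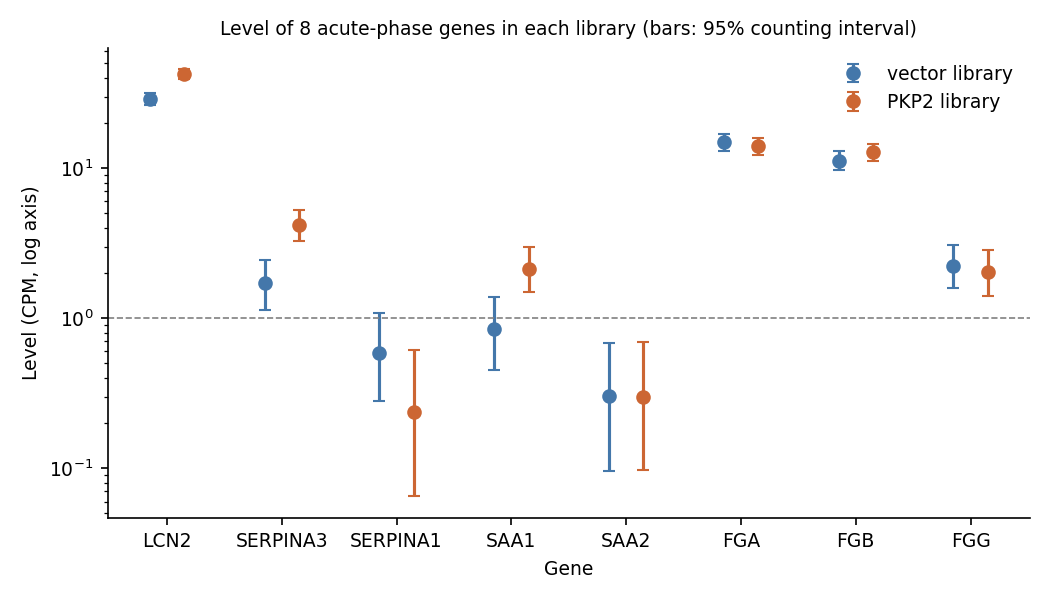
Level in CPM (log axis) of the 8 acute-phase genes with a value, in the vector library (blue) and the PKP2 library (orange), with bars for the 95% counting interval and a dashed line at 1 CPM. LCN2 and SERPINA3 have intervals that do not overlap between the libraries, and so does SAA1, whose count is shared with related genes, while FGA, FGB, FGG, SERPINA1 and SAA2 overlap.

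SAA1 and SAA2 encode the serum amyloid A proteins, apolipoproteins of high-density lipoprotein that are among the most strongly induced plasma proteins of the acute phase. The genes are near-identical neighbours on chromosome 11, SAA2 at 18239223 to 18248643 on the minus strand and SAA1 at 18266174 to 18269977 on the plus strand. SAA1 had 14.45 estimated counts with vector and 36.02 with PKP2, or 0.850 CPM (0.450 to 1.38) and 2.14 CPM (1.5 to 2.97). Its ratio was 2.52, with an interval of 1.37 to 5.22 from counts rounded to whole numbers. SAA2 had 5.13 and 4.98 estimated counts, or 0.302 CPM (0.0955 to 0.686) and 0.296 CPM (0.0966 to 0.694), with a ratio of 0.982 (0.233 to 4.39).

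Fractional values arise where a counter divides reads among similar genes, so the split between SAA1 and SAA2 is uncertain. The readthrough gene SAA2-SAA4, picked after its value was seen, held 1.42 estimated counts with vector and 0 with PKP2. SAA1, SAA2 and SAA2-SAA4 together summed to 21 counts with vector and 41 with PKP2, which are whole numbers. For this sum the level was 1.24 CPM against 2.44 CPM and the ratio 1.97 (1.14 to 3.52). SAA1 and SAA2 without the readthrough gene gave 2.12 (1.19 to 3.73). The higher SAA level in the PKP2 library therefore did not rest on how reads were split within the family, but it rests on these 62 reads. The difference of SAA1 was 0.76 on the log2(CPM + 1) scale, the 31st highest of expressed genes, and 0.55 after removal of the length and GC trend. SAA1 reached 1 CPM only in the PKP2 library, where it was high, so this rank is a description and not a test. Its longest transcript has 675 nucleotides.

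FGA, FGB and FGG encode the alpha, beta and gamma chains that assemble into fibrinogen, the precursor of fibrin in clots. The genes lie together on chromosome 4 between 154562956 and 154612967. FGA had 253 counts with vector and 235 with PKP2, or 14.9 CPM (13.1 to 16.8) and 14.0 CPM (12.3 to 15.9). FGB had 191 and 214 counts, or 11.2 CPM (9.70 to 12.9) and 12.7 CPM (11.1 to 14.6). FGG had 38 and 34 counts, or 2.24 CPM (1.58 to 3.07) and 2.02 CPM (1.40 to 2.83). For each chain the intervals of the libraries overlap.

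The ratios were 0.939 (0.783 to 1.13) for FGA, 1.13 (0.928 to 1.38) for FGB and 0.905 (0.552 to 1.48) for FGG. The summed counts of the chains were 482 with vector and 483 with PKP2, a ratio of 1.01 with an interval of 0.891 to 1.15. This interval gives the ratios that are compatible with these counts under counting error alone. It is not a limit of detection, and a difference within it is not excluded. The differences on the log2(CPM + 1) scale were -0.08 for FGA, 0.17 for FGB and -0.10 for FGG, and they kept their signs after removal of the length and GC trend, at -0.04, 0.14 and -0.10.

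**Figure D2:**
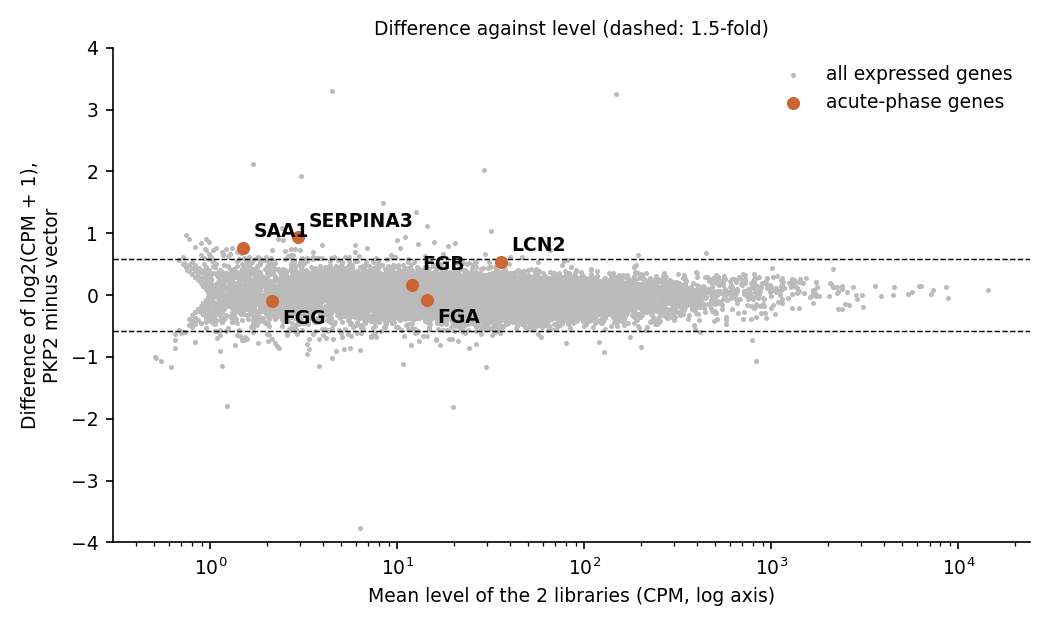
Difference of log2(CPM + 1), PKP2 minus vector, against the mean CPM of the libraries (log axis) for all 12820 expressed genes (grey) and the 6 expressed acute-phase genes (orange), with dashed lines at 1.5-fold. SERPINA3 and SAA1 lie above the upper line at low levels, LCN2 lies at 0.54 just under it, and the fibrinogen chains lie inside the cloud.

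As a group, 2 of the 6 expressed members (SERPINA3 and SAA1) were at least 1.5-fold higher in the PKP2 library on the log2(CPM + 1) scale, where 0.733% of expressed genes were. SAA1 reached 1 CPM only in the PKP2 library, at 0.850 CPM with vector, so its place among the 6 was set by the library where it is high. None was at least 1.5-fold lower, against 0.788% of expressed genes, and none was at least 2-fold higher, against 0.0858%, or 2-fold lower, against 0.101%. The plain ratios of SERPINA3 and SAA1 exceed 2, but the added 1 CPM understates differences of genes near that level. Of the 6, LCN2, SERPINA3 and SAA1 had a ratio interval wholly above 1, where 16.3% of expressed genes did, and 0 had one below 1, against 19.8%. Their median difference was 0.35, next to -0.0016 over all expressed genes. It was 0.080 over all 8 genes with a value, 0.17 over those with a mean of at least 5 CPM, 0.21 with 5 CPM added and 0.23 after removal of the length and GC trend. Since the members were proposed with the value of LCN2 known, nothing is read from these counts.

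LCN2, which was selected as higher, carried most of the summed difference. It also made up 47.6% of the summed CPM with vector. The drop without it thus describes a selected and abundant member and is not a test. The 8 genes with a value summed to 60.7 CPM with vector and 78.1 CPM with PKP2, a ratio of 1.29 (1.18 to 1.40). Without LCN2 the sums were 31.8 and 35.6 CPM and the ratio 1.12, with an interval of 0.993 to 1.26 that includes 1. Leaving out any other member gave ratios from 1.25 (without SERPINA3) to 1.40 (without FGA).

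Levels of different genes were compared per kilobase of the longest GENCODE transcript. LCN2 was the highest member in both libraries, at 32.9 CPM per kb in the vector library (30.1 to 36.0) and 48.4 in the PKP2 library (44.9 to 52.1). FGB followed at 5.69 (4.91 to 6.56) and 6.45 CPM per kb (5.61 to 7.37), then FGA at 4.05 (3.56 to 4.58) and 3.80 (3.33 to 4.32). FGB and FGA did not overlap within either library on these lengths, which were 1975 nucleotides for FGB and 3678 for FGA. Their order depends on the transcript taken. In CPM not divided by length FGA was higher than FGB, at 14.9 against 11.2 with vector and 14.0 against 12.7 with PKP2. The gamma chain gene FGG was lower than FGA per kb by a factor of 3.68 with vector and 3.82 with PKP2. On these lengths the transcripts of the chains were thus not at equal levels, although the chains are assembled in equal number.

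SAA1 lay next, at 1.26 CPM per kb (0.667 to 2.05) with vector and 3.17 (2.22 to 4.39) with PKP2. In the vector library SAA1, FGG at 1.10 (0.779 to 1.51) and SERPINA3 at 0.641 (0.430 to 0.921) followed each other with overlapping intervals, and SERPINA3 also overlapped SAA2. In the PKP2 library SAA1 overlapped FGA instead, and SERPINA3 at 1.57 (1.22 to 1.98) overlapped FGG at 0.996 (0.690 to 1.39). SAA2 at 0.295 and 0.290 CPM per kb and SERPINA1 at 0.167 and 0.0674 were lowest, with intervals that overlapped each other. LCN2 made up 71.4% of the members' summed level per kb with vector and 74.8% with PKP2.

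Among the further acute-phase and liver-type plasma protein genes, 0 of the expressed ones had a ratio interval above 1, where 16.3% of all expressed genes did, and 0 had one below 1, against 19.8%. Few averaged 5 CPM or more, 1 of 4 acute-phase and 5 of 14 liver-type genes, against 10846 of all 12820 expressed genes. Intervals are wide at low counts, so these counts of 0 do not show equal levels. Of 20 further acute-phase genes 10 had a value and 4 were expressed, with differences from -0.47 to 0.08 and a median of -0.06. The most negative was C4BPA, picked after its value was seen, with 36 and 21 counts and a ratio of 0.590 (0.327 to 1.04). The most abundant was CP, which encodes the copper oxidase ceruloplasmin, at 8.74 and 8.17 CPM with a ratio of 0.935 (0.732 to 1.18, fractional count). Of 38 further liver-type plasma protein genes 27 had a value and 14 were expressed, 10 with a positive difference and 4 with a negative one. Their median was 0.15, or 0.03 after removal of the length and GC trend. They ranged from -0.31 to 0.48 for APOE, picked afterwards, with 14 and 26 counts and a ratio of 1.88 (0.945 to 3.89). Among them were the anticoagulant cofactor PROS1 (protein S) with a ratio of 0.944 (0.817 to 1.09), the coagulation factor gene F5 with 0.983 (0.808 to 1.195), the apolipoprotein gene APOH with 1.12 (0.886 to 1.41) and vitronectin gene VTN with 1.14 (0.855 to 1.53).

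**Figure D3:**
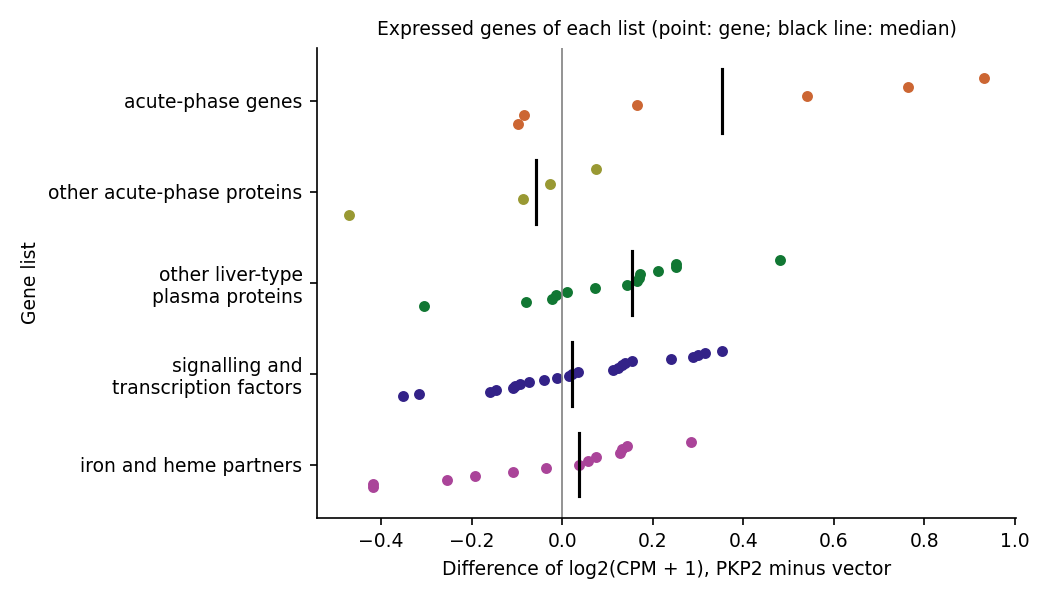
Difference of log2(CPM + 1), PKP2 minus vector, for every expressed gene of 5 lists, with a black line at the median of each list. The acute-phase genes described here have a median of 0.35 and spread from -0.10 to 0.93, and the other acute-phase list has a median of -0.06. The median of 0.35 includes LCN2, which was selected as higher, and SAA1, which reached 1 CPM only in the PKP2 library. Over all 8 genes with a value it is 0.080, and nothing is read from the contrast of the lists.

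Genes for the signals and factors that act on these promoters differed in both directions. All 23 listed were expressed, 7 with a ratio interval above 1 (16.3% of all expressed genes), 4 with one below 1 (19.8%) and 12 with one including 1, and none was 1.5-fold apart. The median was 0.02. CEBPB and CEBPD, which encode the C/EBP factors of the acute-phase response, stood at 78.3 and 28.3 CPM in the vector library and 100.2 and 35.5 CPM in the PKP2 library. Their ratios were 1.28 (1.19 to 1.38) and 1.25 (1.11 to 1.42). CEBPA, picked after its value was seen, had a ratio of 1.24 (1.02 to 1.51). After removal of the length and GC trend, the differences of CEBPA, CEBPB and CEBPD were 0.16, 0.19 and 0.14 instead of 0.29, 0.35 and 0.32.

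NFKBIZ encodes IkappaB-zeta, a nuclear coactivator of NF-kappaB known to act on LCN2, and is named here because of its value. It had 20.9 CPM with vector and 26.0 CPM with PKP2, a ratio of 1.24 (1.08 to 1.43), and its difference was 0.30, or 0.33 with the trend removed. Other NF-kappaB genes of the list, also named afterwards, did not all follow it. NFKB1 and RELA had ratios of 0.926 (0.848 to 1.01) and 1.03 (0.963 to 1.09). NFKB2 and NFKBIA had ratios of 1.11 (1.04 to 1.19) and 1.09 (1.02 to 1.16). With the trend removed, NFKB2 and NFKBIA differed by 0.08 and -0.009 instead of 0.15 and 0.12. SOCS3, the feedback inhibitor of gp130 signalling and also picked afterwards, had a ratio of 1.19 (1.04 to 1.35). JAK1 and STAT3, the kinase and the transcription factor of the gp130 route and picked afterwards too, had ratios of 0.903 (0.867 to 0.941) and 0.895 (0.857 to 0.935). With the trend removed, the differences of SOCS3, JAK1 and STAT3 were 0.15, -0.08 and -0.11 instead of 0.24, -0.15 and -0.16. Among the receptor genes, IL6R, LIFR, OSMR and IL1RAP, picked afterwards as well, had intervals that include 1. IL1R1, the interleukin 1 receptor, was 1.28-fold lower (1.15 to 1.43) at 35.6 against 45.7 CPM, and IL6ST, which encodes gp130, 1.25-fold lower (1.18 to 1.32) at 136.5 against 170.3 CPM. IL6ST has a long transcript, and its difference was -0.09 instead of -0.32 with the trend removed, while that of IL1R1 was -0.26 instead of -0.35. Whether any of these differences bears on LCN2 was not tested.

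Iron and heme partners of LCN2, transferrin and haptoglobin also went both ways, 3 of 13 expressed genes with an interval above 1 (16.3% of all expressed genes) and 4 with one below 1 (19.8%). SLC22A17, which encodes a receptor for lipocalin 2, had 6.41 CPM with vector and 8.03 CPM with PKP2, a ratio of 1.25 (0.966 to 1.63) that includes 1. TFRC, the transferrin receptor, was 1.34-fold lower (1.30 to 1.38) at 422.6 against 564.8 CPM, and the iron regulatory protein gene IREB2 was 1.34-fold lower (1.26 to 1.43) at 102.9 against 137.8 CPM. With the trend removed they lay at -0.31 and -0.25 instead of -0.42 and -0.42. LRP1, a scavenger receptor that takes up serpin complexes, was 1.197-fold lower (1.09 to 1.31), and at -0.14 instead of -0.25 with the trend removed.

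**Figure D4:**
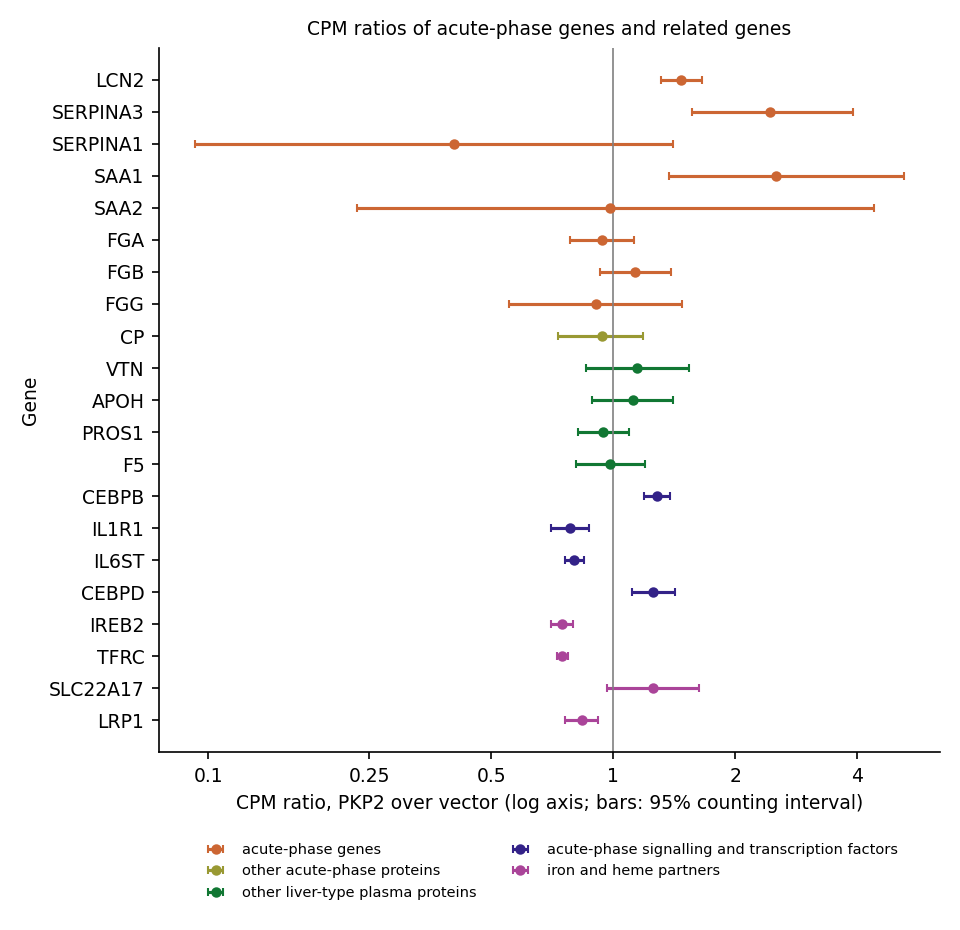
CPM ratio, PKP2 over vector (log axis), with 95% counting intervals, for the 8 acute-phase genes with a value and the genes named by rule from the 4 lists of related genes, without the marker lists, coloured by list. Of the genes plotted, LCN2, SERPINA3, SAA1, CEBPB and CEBPD lie wholly above 1, and IL1R1, IL6ST, IREB2, TFRC and LRP1 wholly below it.

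The difference of each member depended on how it was computed, most for genes near 1 CPM. With 0.1 CPM added in place of 1 CPM, SERPINA3 and SAA1 both passed the 2-fold mark, at 1.24 each. With 5 CPM added they lay at 0.45 and 0.29, under the 1.5-fold mark. LCN2 varied less with the added value, at 0.55 and 0.49, and more with the length trend. All 3 were positive under each of these settings.

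**Figure D5:**
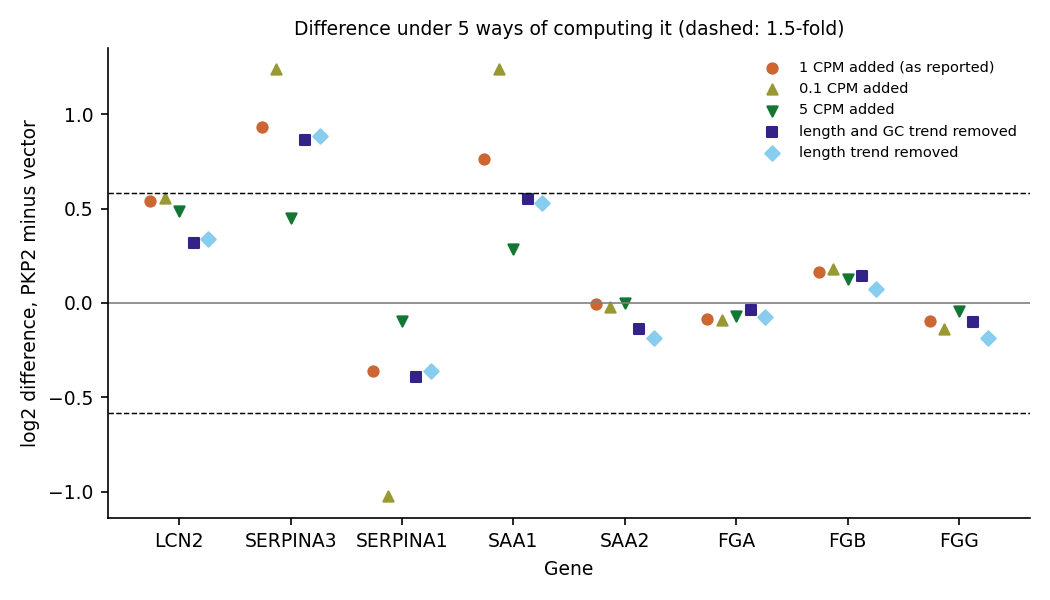
Difference, PKP2 minus vector, of the 8 acute-phase genes under 5 ways of computing it (0.1, 1 or 5 CPM added, and the length and GC trend or the length trend removed), with dashed lines at 1.5-fold. LCN2, SERPINA3 and SAA1 are above 0 throughout, and the fibrinogen chains stay near 0.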

How the data were processed

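Per the labels' protocols, total RNA from Trizol extraction went into Illumina TruSeq libraries. The authors deposited estimated counts per gene by Entrez ID, 1 library per file. Per the submitters' processing notes, the build was GRCh38.p12 and the tools included RSEM 1.2.12, Bowtie2 and HISAT2 2.0.4. How these were combined, with which annotation, filters and strand setting, is not given in the sources used here.

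From these counts CPM, ratios with exact 95% Clopper-Pearson intervals and differences of log2(CPM + 1) were computed (Python 3.11.15, scipy 1.17.1). Interval bounds used counts rounded to whole numbers. A gene with a value in only 1 library was set to 0 counts in the other. Symbols came from RefSeq (GRCh38.p14, 16183 of 16399 IDs), coordinates and the longest transcript from GENCODE 29. The trend was an additive lowess (statsmodels 0.14.6, span 0.3) on log length and GC content, available for 98.8% of expressed genes. The calculation was tested on simulated data. Alternatives were other added values, scalings, filters and sums of SAA genes.

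The members and lists were chosen with earlier results of these data known. Named are all members, PKP2, ALB, and up to 4 genes per related list with the largest difference at a mean of 5 CPM or more. Others are stated as picked afterwards.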

Additional observations from a re-analysis of the deposited data

How the results depend on the processing

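With 1 library per group nothing could be left out and repeated, and values near 1 CPM rest on few reads. No paired analysis was possible because each group has 1 library and the labels give no replicate numbers. The number of members at least 2-fold higher was 2 with 0.1 CPM added, instead of 0. The number at least 1.5-fold higher was 0 with 5 CPM added and 0 among members averaging at least 5 CPM, instead of 2. It was 1 after removal of the length and GC trend, 1 with the length trend removed and 1 with fractional counts left out, which drops SAA1. The median difference of the members was 0.21 with 5 CPM added, 0.23 after removal of the length and GC trend, 0.21 with the length trend removed, 0.080 over the 8 members without a filter, and 0.17 both at a mean of 5 CPM or more and without fractional counts, instead of 0.35. LCN2 differed by 0.32 after removal of the length and GC trend and by 0.34 with the length trend removed, instead of 0.54. Setting the median or the trimmed mean of the log ratios to 0 shifted differences by less than 0.01 and changed none of these counts. Summing SAA1 and SAA2, or both with SAA2-SAA4 (chosen after seeing the data), gave 0.68 and 0.62 for SAA1 instead of 0.76. Among the genes named by rule, CP, APOH, F5, CD68 and KRT19, none of them 1.5-fold apart, changed sign when the length and GC trend or the length trend was removed, and no member did.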

Other observations

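Genes next to the members on the chromosome were looked up in the same libraries. Among listed genes LCN2 lies between PTGES2, with a ratio of 0.985 (0.913 to 1.06), and BBLN, with 1.22 (1.09 to 1.36). After removal of the length and GC trend BBLN differed by 0.11 and LCN2 by 0.32. Beyond the fibrinogen genes, PLRG1 had a ratio of 0.946 (0.862 to 1.04). Next to SAA1, HPS5 was 1.14-fold lower (1.03 to 1.27) and GTF2H1 had a ratio of 0.921 (0.840 to 1.01). On the far side of SERPINA3, GSC had 13 and 11 counts and a ratio of 0.856 (0.347 to 2.07). DICER1, the next listed gene on that side, was 1.19-fold lower (1.10 to 1.29), with a difference of -0.03 instead of -0.25 after removal of the length and GC trend. These flanking genes were taken as the nearest listed genes by start position, up to 2 on each side, after the members' values were seen.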
